A study of Arabidopsis thaliana with 12 samples.

Results

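COR genes of the cold and abscisic acid response, 10 loci in all, were followed through 12 RNA-seq libraries of Arabidopsis thaliana seedlings. They are COR15A (AT2G42540), COR15B (AT2G42530), KIN1 (AT5G15960), KIN2 (AT5G15970), RD29A (AT5G52310), RD29B (AT5G52300), COR47 (AT1G20440), ERD10 (AT1G20450), RAB18 (AT5G66400) and COR413IM1 (AT1G29395), taken by locus number from count tables of 34262 features, and all 10 passed the filter on low counts. The list was chosen by locus with earlier results of these libraries known, and is treated as selected on the CPM levels of the 4 groups, so every level, fold change and call given for them is a description and no independent evidence. Seedlings were 6 days old and were grown on MS medium. The 4 groups held 3 libraries each: pot1b seedlings with 20 µM Zeocin for 6 h, pot1b seedlings with mock treatment, wild type Col-0 seedlings (WT) with the same Zeocin treatment, and WT seedlings with mock treatment. POT1B is a paralogue of a telomere protein gene, and Zeocin is a bleomycin-type drug that breaks DNA. The pot1b allele, and whether the replicates came from separate cultures, are not given in the sources used here, so the p-values reflect no more than the spread among these libraries, which may be technical.

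In the cold, CBF transcription factors bind the C-repeat, also called dehydration-responsive element (CRT/DRE), upstream of COR genes. In drought, abscisic acid frees SnRK2 kinases, which activate ABF factors that bind the abscisic acid responsive element (ABRE). Most of the 10 genes code for very hydrophilic proteins that are thought to protect membranes and enzymes when cells lose water.

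Library totals ran from 9607269 to 24587168 counts, and chloroplast genes took 53.0% to 58.5% of them. Levels below are CPM, the counts divided by the TMM-scaled library total and given at the usual scale of that unit, and 3 counts in a library correspond to 0.119 to 0.316 CPM. POT1B itself was at 0.70 to 1.66 CPM in 4 of the pot1b libraries and at 2.95 to 5.35 CPM in the 6 WT libraries. The pot1b libraries with replicate number 3 lay near the WT level, at 4.21 CPM with Zeocin and 2.82 CPM with mock, so that POT1B did not check their labels. Calls of the genes named here that were lost without this pair are given where they occur.

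Upstream of the start codons, 1 CRT/DRE match of each locus is shown because CBF factors bind that element. Where a locus has several, it is the one most like that of its neighbour. Sequences were read from the RefSeq genome of build TAIR10.1 at the annotated loci, while the counts had been made on TAIR10. The 25 bases are printed 5′ to 3′ on the strand where the core CCGAC reads forward, and capitals mark that core.
COR15A (chr2:17712218-17712242, minus strand): aatttcatggCCGACctgctttttt
COR15B (chr2:17710124-17710148, minus strand): aacttgatggCCGACctcttttttc
KIN1 (chr5:5209804-5209828, plus strand): taaatagctaCCGACataaggcaaa
KIN2 (chr5:5211771-5211795, plus strand): taaaaagctaCCGACataaggcaaa
RD29A (chr5:21240567-21240591, plus strand): tagacatggaCCGACtactaataat
RD29B (chr5:21236875-21236899, plus strand): taaacgtggaCCGACtaaaactaaa
COR47 (chr1:7085918-7085942, minus strand): tattcatctaCCGACttcaagaaat
ERD10 (chr1:7089371-7089395, minus strand): tattcatccaCCGACcgaccgacgt
RAB18 (chr5:26519345-26519369, minus strand): aaacaccacgCCGACattttctgct
COR413IM1 (chr1:10289911-10289935, plus strand): ttcattggtaCCGACataactaatt

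Of the 25 bases shown, 24 were the same in KIN1 and KIN2, 20 in COR15A and COR15B, 19 in RD29A and RD29B and 17 in COR47 and ERD10. These counts include the core, which is the same in every stretch because the stretches were cut around it. The most alike matches were chosen, and unrelated loci were not compared, so the counts do not measure relatedness. A CCGAC match, on either strand and within 500 bases before the start codon, was found at 10 of the 10 loci, against 23.4% of the 27443 such windows of nuclear protein-coding genes. The ABRE core ACGTG was found on either strand at 9 of 10 loci, ERD10 being the exception, against 34.9% of windows. Both motifs together were present at 9 loci, against 9.10% of windows. RD29A held 4 CCGAC matches, ERD10 3 that follow each other within a few bases, and COR15A 2. No CRT/DRE match overlapped an ABRE match at these loci, but a CACGTG counts as a match on each strand. The DRE was described in the RD29A promoter and the C-repeat in that of COR15A. Because the annotated transcripts reach far upstream of the start codons, the matches shown for COR15A, COR15B, KIN1, KIN2, COR47, ERD10 and RAB18 lie within the annotated transcript. A match is a description, not a bound site, and no match says only that these letters are not in this window.

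For RAB18 and RD29B, which are known mainly as abscisic acid responsive, 1 ABRE match of each is shown, with the core in capitals.
RAB18 (chr5:26519544-26519568, minus strand): gaggagcattACGTGtcctgttagc
RD29B (chr5:21236973-21236997, plus strand): actggctgagACGTGgcaggacgaa

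**Figure D1:**
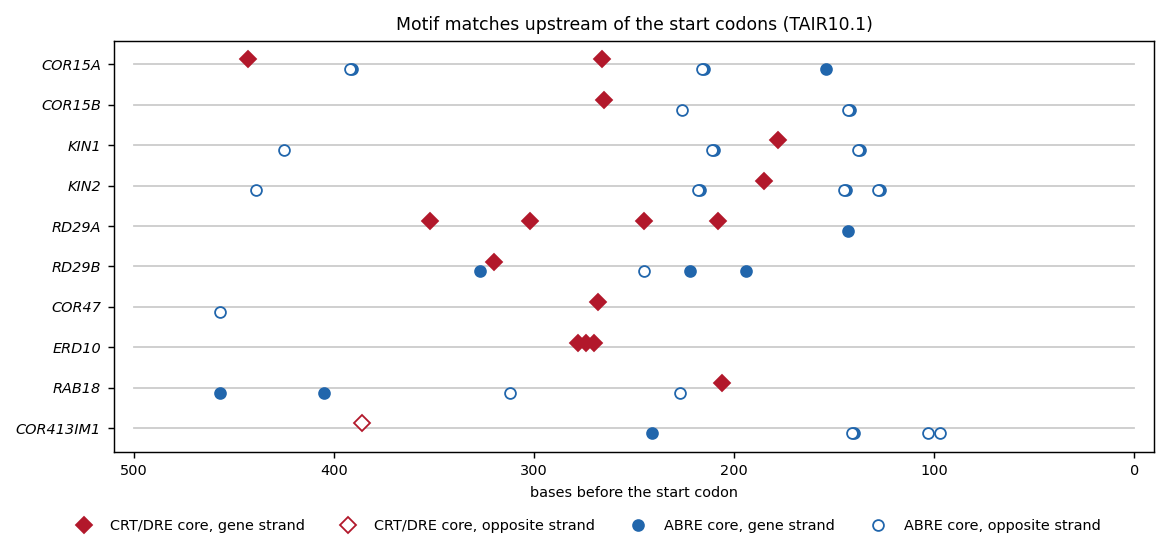
Positions of CCGAC (CRT/DRE core, diamonds) and ACGTG (ABRE core, circles) matches within 500 bases before the start codon of each of the 10 genes, with filled symbols for the gene's strand. The 4 CCGAC matches of RD29A are spread out, while the 3 of ERD10 lie next to each other at 278 to 270 bases before the start codon.

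COR15A and COR15B code for small chloroplast stroma proteins that protect the inner envelope membrane during freezing. COR15A had 4.43, 4.46 and 4.81 CPM in pot1b Zeocin libraries (replicates 1, 2 and 3), 4.58, 4.84 and 5.28 CPM in pot1b mock, 1.51, 1.35 and 1.23 CPM in WT Zeocin and 1.58, 1.47 and 1.76 CPM in WT mock. The 6 pot1b libraries were all above the 6 WT libraries, and the treatments overlapped within each genotype. The difference was the largest of the 10 genes in both genotype comparisons, with a log2 fold change of 1.75 (SE 0.18, edgeR adjusted p = 6.2e-07) under Zeocin and 1.58 (SE 0.17, adjusted p = 6.8e-07) under mock. It rests on 51 to 93 counts per library in pot1b and 14 to 40 in WT.

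COR15B, next to COR15A on chromosome 2 with 7 bases between the annotated genes, differed from it in its response to the drug. Its levels were 9.98, 7.70 and 8.34 CPM in pot1b Zeocin, 5.47, 5.15 and 5.20 CPM in pot1b mock, 3.70, 3.77 and 3.91 CPM in WT Zeocin and 3.29, 3.47 and 3.33 CPM in WT mock. These 4 sets of libraries did not overlap. COR15B was called higher with Zeocin in pot1b (log2 0.72, SE 0.13, adjusted p = 0.00092) but not in WT (0.18, SE 0.15, adjusted p = 0.59), and the test of that difference missed the threshold (0.54, SE 0.20, adjusted p = 0.29). Against WT it was higher in pot1b by 1.20 (SE 0.14) under Zeocin and 0.66 (SE 0.15) under mock. COR15B overlaps AT2G42520 on the other strand, and the strand setting of the counting is not given in the sources used here, so reads of the pair may not be told apart. AT2G42520 was not called in any comparison, with log2 fold changes of -0.32 to 0.20 over the 4 comparisons and the interaction.

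COR413IM1, which codes for a protein of the chloroplast inner envelope, stood apart from the COR15 genes. It averaged 59.1 ± 1.96 CPM in pot1b Zeocin, 55.9 ± 0.66 CPM in pot1b mock, 55.5 ± 6.27 CPM in WT Zeocin and 60.7 ± 4.68 CPM in WT mock (SD, n = 3 each). No comparison called it. The genotype difference was 0.09 under Zeocin and -0.12 under mock, and the intervals of 2 SE on each side ran from -0.07 to 0.25 and from -0.28 to 0.04 on the log2 scale.

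KIN1 and KIN2 code for small hydrophilic proteins of closely related sequence. KIN1 had 12.8, 13.4 and 10.3 CPM in pot1b Zeocin, 9.51, 8.04 and 8.17 CPM in pot1b mock, 4.52, 4.78 and 3.21 CPM in WT Zeocin and 5.39, 6.21 and 5.04 CPM in WT mock. The pot1b Zeocin libraries were above all pot1b mock libraries, and the WT Zeocin libraries were below all WT mock libraries. In pot1b the rise was called (log2 0.50, SE 0.14, adjusted p = 0.035), and in WT the value of -0.40 (SE 0.16, adjusted p = 0.17) was not. The difference between these responses was 0.89 (SE 0.21) and missed the threshold narrowly, at an adjusted p of 0.0501. It passed with DESeq2 (adjusted p = 0.034), without a filter on low counts (0.019) and with nuclear genes only (0.0496). It did not pass with limma-voom, with RLE scaling of the libraries or without both pot1b libraries numbered 3. Of the 12 leave-one-out fits 3 called it, and the adjusted p ran from 0.012 to 0.17 over them all. The call in pot1b was lost without both pot1b libraries numbered 3 (adjusted p = 0.078), with DESeq2 (0.057) and in 5 of the 12 leave-one-out fits (up to 0.16). Against WT, KIN1 was higher in pot1b by 1.55 (SE 0.15, adjusted p = 3.2e-07) under Zeocin and by 0.66 (SE 0.15, adjusted p = 0.0041) under mock.

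KIN2 was at far higher counts, with 223, 213 and 231 CPM in pot1b Zeocin, 225, 222 and 250 CPM in pot1b mock, 112, 154 and 160 CPM in WT Zeocin and 185, 183 and 182 CPM in WT mock. All 6 pot1b libraries were above all 6 WT libraries. KIN2 fell with Zeocin in WT (log2 -0.37, SE 0.10, adjusted p = 0.028), the single member called in that comparison. That call was lost without any 1 of the WT mock libraries (adjusted p of 0.080 to 0.10), when only the WT groups were fitted (0.16) and without both pot1b libraries numbered 3 (0.054). In pot1b the value was -0.06 (SE 0.10, adjusted p = 0.83). The genotype difference was 0.65 (SE 0.10, adjusted p = 0.00017) under Zeocin and 0.34 (SE 0.10, adjusted p = 0.026) under mock. The mock call was lost in 6 of 12 leave-one-out fits (adjusted p up to 0.14), namely in every fit that left out a library of this comparison. It was also lost without both pot1b libraries numbered 3 (0.15). The coding sequences of the pair were 95.0% identical over 201 bases, with a longest identical run of 58 bases, and how reads that match both were counted is not given in the sources used here, so the split between KIN1 and KIN2 is uncertain.

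RD29A and RD29B are neighbours on chromosome 5. RD29A, which responds to cold and drought through its DREs, had 183, 181 and 153 CPM in pot1b Zeocin, 124, 115 and 110 CPM in pot1b mock, 104, 89.6 and 69.3 CPM in WT Zeocin and 90.3, 96.9 and 85.5 CPM in WT mock. The pot1b Zeocin libraries lay above all others and the pot1b mock libraries above all WT libraries, while the WT treatments overlapped. The Zeocin rise in pot1b was 0.56 (SE 0.11, adjusted p = 0.0032), and all 12 leave-one-out fits kept it past the threshold. In WT the value was -0.05 (SE 0.11, adjusted p = 0.87). The difference between the responses, 0.62 (SE 0.16), was not called (adjusted p = 0.088), but was called with DESeq2 (adjusted p = 0.031) and without WT Zeocin replicate 1 (0.0037), and the leave-one-out range was 0.0037 to 0.23. Under Zeocin RD29A was higher in pot1b than in WT by 0.98 (SE 0.11, adjusted p = 1.6e-05). Under mock the call of the difference, 0.36 (SE 0.11, adjusted p = 0.043), was lost in 9 of 12 leave-one-out fits (adjusted p up to 0.15). Among these was every fit that left out a mock library. It was also lost with limma-voom (0.052).

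RD29B, which responds mainly to abscisic acid through its ABREs, was close to the detection limit. Libraries held 11, 9 and 6 counts in pot1b Zeocin, 22, 10 and 1 in pot1b mock, 10, 15 and 10 in WT Zeocin and 26, 10 and 18 in WT mock. Its groups overlapped in 3 of the 4 comparisons between groups, and in the other, WT Zeocin libraries (0.68, 0.84 and 0.54 CPM) lay below WT mock libraries (1.03, 1.05 and 0.86 CPM). No call was made, the log2 fold changes ran from -0.49 to -0.05 with SE of 0.42 to 0.48, and 2 SE on each side of the genotype difference under mock spanned -1.33 to 0.36, so that a difference in either direction may have gone undetected at this depth.

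COR47, ERD10 and RAB18 are dehydrins, proteins that stay soluble and lie on membranes as cells dry. COR47 had 648, 594 and 475 CPM in pot1b Zeocin, 461, 330 and 365 CPM in pot1b mock, 630, 322 and 269 CPM in WT Zeocin and 440, 421 and 391 CPM in WT mock. Replicate 1 was the highest library in 4 of the 4 groups, and WT Zeocin replicate 1 lay inside the range of the pot1b Zeocin libraries. ERD10, a neighbour of COR47 on chromosome 1 whose coding sequence shared 82.3% of the aligned bases with it, had 136, 135 and 106 CPM in pot1b Zeocin, 86.4, 73.4 and 71.2 CPM in pot1b mock, 109, 62.0 and 48.2 CPM in WT Zeocin and 69.6, 71.1 and 63.1 CPM in WT mock. For both genes the pot1b Zeocin libraries lay above all pot1b mock libraries.

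Neither of these dehydrin genes was called in the 4-group fit of all 12 libraries. COR47 had log2 fold changes of 0.57 (SE 0.30, adjusted p = 0.39) for Zeocin in pot1b and 0.49 (SE 0.30, adjusted p = 0.38) for pot1b against WT under Zeocin, and ERD10 had 0.70 (SE 0.27, adjusted p = 0.20) and 0.79 (SE 0.27, adjusted p = 0.11). Without WT Zeocin replicate 1 both were called higher in pot1b than in WT under Zeocin, COR47 by 0.94 (adjusted p = 0.017) and ERD10 by 1.17 (adjusted p = 0.00082), and ERD10 was also called for Zeocin in pot1b (0.70, adjusted p = 0.0071). ERD10 was called for Zeocin in pot1b as well when only the pot1b groups were fitted (adjusted p = 0.00025). WT Zeocin replicate 1 is the highest library of its group for both genes, so that leaving it out favours the calls between genotypes. The Zeocin comparison in pot1b does not compare that library, and the fold change of ERD10 there was 0.70 with and without it. Over all genes, leaving it out moved the calls for Zeocin in pot1b from 1313 to 2033. Under mock the genotype differences were -0.11 (SE 0.30) for COR47 and 0.18 (SE 0.27) for ERD10.

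RAB18, the abscisic acid responsive dehydrin gene, had 2.08, 1.23 and 1.73 CPM in pot1b Zeocin, 2.51, 1.72 and 2.02 CPM in pot1b mock, 1.10, 1.07 and 0.96 CPM in WT Zeocin and 1.62, 1.68 and 1.14 CPM in WT mock. Every pot1b library was above the WT libraries of the same treatment, at 14 to 51 counts a library in pot1b and 16 to 41 in WT. No comparison called it. The genotype difference was 0.71 (SE 0.27, adjusted p = 0.10) under Zeocin and 0.54 (SE 0.24, adjusted p = 0.15) under mock, and the Zeocin difference was -0.32 (SE 0.24) in pot1b and -0.48 (SE 0.27) in WT. RAB18 overlaps PLP3b on the other strand, so its counts carry the same uncertainty as those of COR15B. PLP3b averaged 6.94 CPM in pot1b Zeocin, 7.01 CPM in pot1b mock, 5.93 CPM in WT Zeocin and 5.71 CPM in WT mock, above RAB18 in each group. It was not called in any comparison, with log2 fold changes of -0.07 to 0.30. Its genotype difference was 0.23 (SE 0.15) under Zeocin and 0.30 (SE 0.15) under mock, the same direction as for RAB18. Whether its reads entered the RAB18 counts was not tested.

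**Figure D2:**
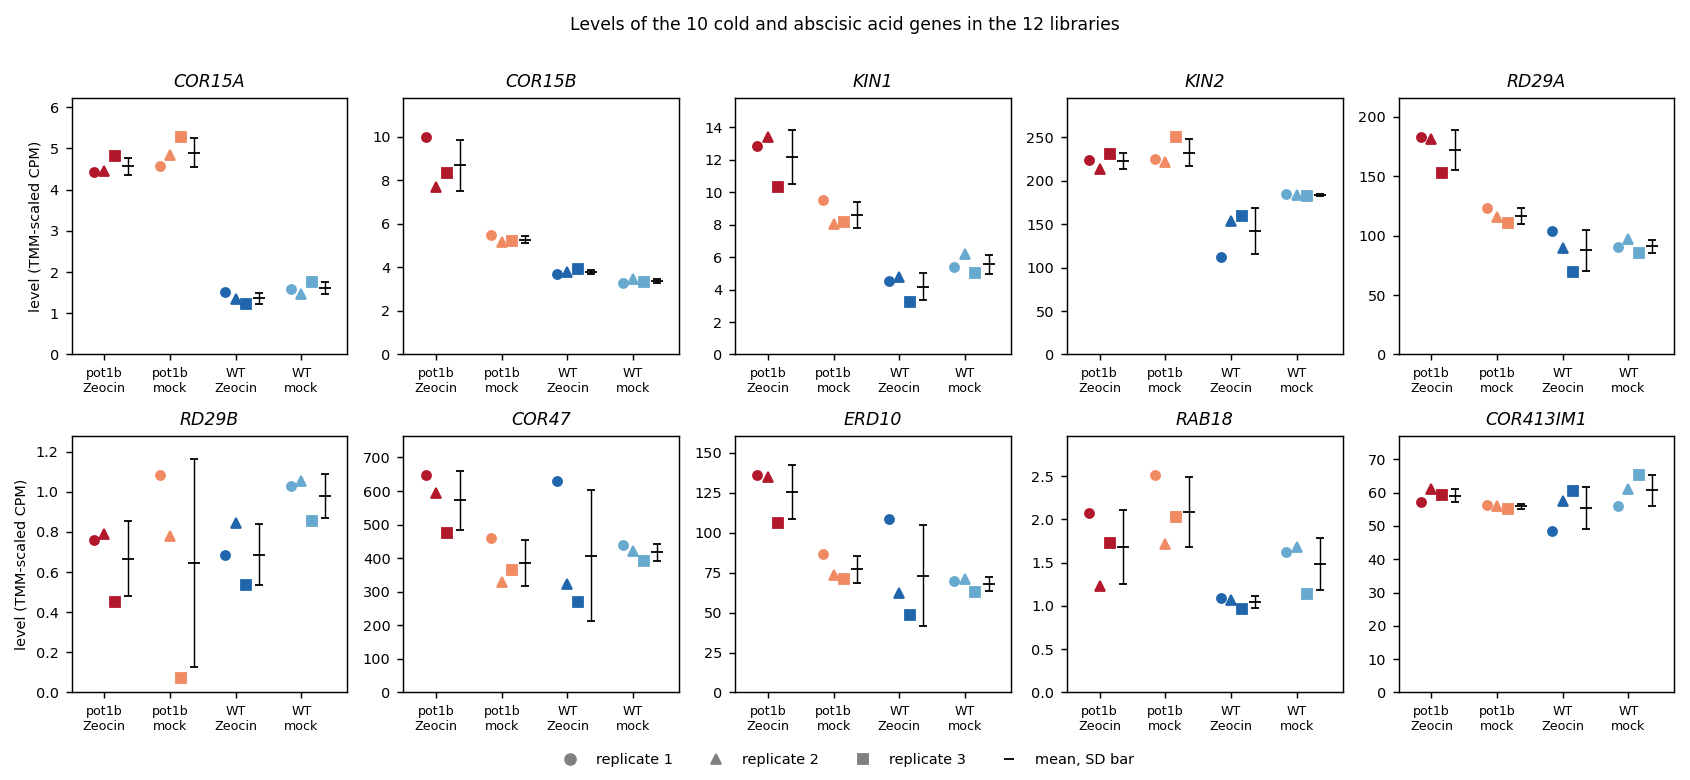
TMM-scaled CPM (vertical axis, from 0) of the 10 genes in the 12 libraries by group, with 1 symbol per replicate number and the group mean with its SD beside the points. COR15A, COR15B, KIN1, KIN2 and RD29A had every pot1b library above every WT library, and WT Zeocin replicate 1 of COR47 and ERD10 lay far above the rest of its group.

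Counted together under Zeocin, 5 of the 10 genes were called higher in pot1b than in WT (COR15A, COR15B, KIN1, KIN2 and RD29A), against 6.55% of the 19596 genes tested (11.1% were called in either direction). Under mock the same 5 genes were called higher, against 7.25% of all genes (13.1% in either direction). Called lower were 0 of the 10 in both comparisons, against 4.51% of all genes under Zeocin and 5.83% under mock. Their median log2 fold change was 0.75 under Zeocin and 0.35 under mock, against 0.01 over all genes tested in each. Ranges lay wholly above those of WT for 6 genes under Zeocin, against 14.0% of all genes, and for 7 under mock, against 17.7%. The count under mock fell to 3 without any 1 of the 6 mock libraries. Without both pot1b libraries numbered 3, 5 genes were called under Zeocin and 4 under mock.

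With Zeocin in pot1b, 3 of the 10 genes were called higher (COR15B, KIN1 and RD29A), against 3.70% of all genes (6.70% in either direction), and 0 lower, against 3.00%. Libraries lay wholly above those of mock for 6 genes, against 12.6% of all genes, and wholly below for 0, against 12.7%. The median was 0.29 against 0.00 over all genes. In WT, 1 gene was called lower (KIN2), against 2.65% of all genes (5.99% in either direction), and 0 higher, against 3.34%. Libraries lay wholly below those of mock for 4 genes, against 11.1%, and wholly above for 1, against 10.9%. The median was -0.20 against 0.00. The interaction, in which the Zeocin fold change of WT is subtracted from that of pot1b, was above 0 for 10 of 10 genes, with a median of 0.49 against 0.00 over all genes. edgeR called 0 of them, against 0.750% of all genes called in either direction. Its unadjusted p was under 0.05 for 4 of the 10, against 2107 of the 19596 genes tested. DESeq2 called 2 (KIN1 and RD29A) and limma-voom 0. Each of these comparisons shares its pot1b Zeocin, pot1b mock or WT libraries with others, so the values of a gene across them are not independent observations. The genotype comparisons under Zeocin and under mock share no library, but share the spread estimate.

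**Figure D3:**
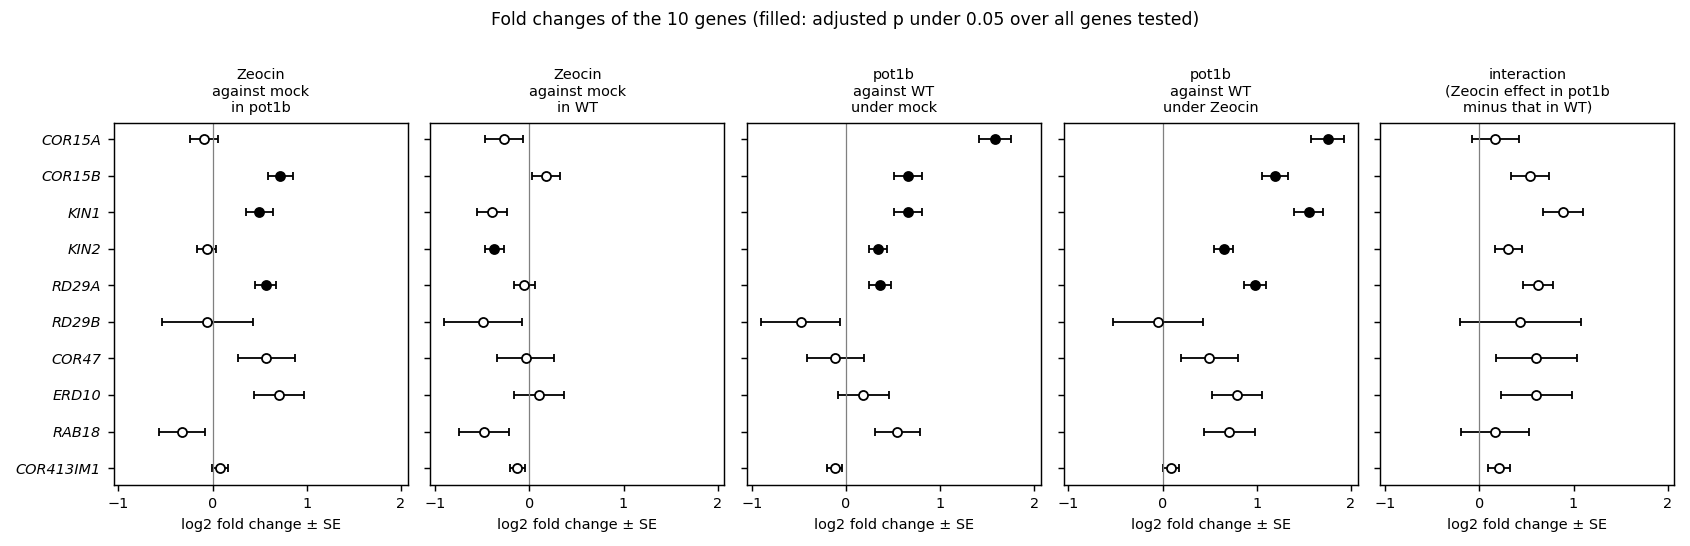
Log2 fold changes (horizontal axis) with SE bars for the 10 genes in the 5 comparisons, filled where the adjusted p over all genes was under 0.05. All 10 genes lie to the right of 0 in the interaction panel, and none is filled there.

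Levels can be compared between genes only per length, here CPM per kb of annotated exon, and these follow the TAIR10.1 exon models. In pot1b Zeocin the order was KIN2 (297 ± 12.2), COR47 (247 ± 38.0), ERD10 (77.3 ± 10.4), RD29A (64.7 ± 6.29), COR413IM1 (57.9 ± 1.92), KIN1 (14.7 ± 1.99), COR15B (5.48 ± 0.74), COR15A (2.88 ± 0.13), RAB18 (1.54 ± 0.39) and RD29B (0.31 ± 0.086; CPM per kb, SD, n = 3). In WT mock it was KIN2 (245 ± 1.79), COR47 (180 ± 10.6), COR413IM1 (59.5 ± 4.58), ERD10 (41.8 ± 2.63), RD29A (34.1 ± 2.14), KIN1 (6.69 ± 0.73), COR15B (2.12 ± 0.062), RAB18 (1.36 ± 0.27), COR15A (1.01 ± 0.090) and RD29B (0.45 ± 0.050). Libraries of neighbours overlapped for ERD10 with RD29A and RD29A with COR413IM1 in pot1b Zeocin, and for RAB18 with COR15A in WT mock. COR15A thus stood above RAB18 in pot1b Zeocin, 8th against 9th, while the pair could not be ordered in WT mock.

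The CBF genes themselves were near the detection limit, while 4 other regulators were called higher in pot1b under mock. Of 16 listed regulators of the cold response 11 could be tested. CBF2 was not called in any comparison, and CBF1, CBF3 and CBF4 had 28, 5 and 1 counts over all 12 libraries, too few to test. Under mock 4 of the 11 were called higher in pot1b than in WT, against 7.25% of all genes. These were MYB15 (log2 1.62, SE 0.18), which is known to hold CBF genes down, ZAT12 (0.95, SE 0.12), DREB2A (0.54, SE 0.16), a drought and heat counterpart of the CBFs, and ZAT10 (0.41, SE 0.08). Under Zeocin MYB15 (0.96, SE 0.18) and ZAT12 (0.70, SE 0.13) were higher, against 6.55% of all genes called higher. HOS1, for a ubiquitin ligase that acts on the CBF activator ICE1, was lower (-0.29, SE 0.09), against 4.51% called lower. CAMTA3 was called higher with Zeocin in pot1b (0.26, SE 0.07), against 3.70% of all genes. In WT it had a similar value (0.24, SE 0.07) but was not called (adjusted p = 0.055), and its interaction was 0.02 (SE 0.10). ZAT10 was called higher with Zeocin in WT (0.45, SE 0.08), against 3.34% of all genes, and was not called in pot1b (0.16, SE 0.08). The calls of DREB2A, HOS1 and CAMTA3 were each lost in 4 or more leave-one-out fits, with adjusted p up to 0.18, and those of HOS1 (0.12) and CAMTA3 (0.17) also without both pot1b libraries numbered 3.

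Of 11 genes of abscisic acid synthesis and breakdown 8 were tested. In mock libraries 3 were higher in pot1b than in WT, against 7.25% of all genes, namely the breakdown enzyme genes CYP707A1 (log2 0.89, SE 0.23) and CYP707A3 (0.60, SE 0.19) and the synthesis gene ABA1 (0.37, SE 0.09), each lost in at least 1 leave-one-out fit (adjusted p up to 0.17). Between genotypes under Zeocin each of edgeR, DESeq2 and limma-voom made 0 calls, against 11.1% of all genes called in either direction by edgeR. There 1 of the 8 genes had an unadjusted p under 0.05, against 4812 of the 19596 genes tested. CYP707A2 (-1.56, SE 0.36) and CYP707A1 (-0.78, SE 0.24) fell with Zeocin in pot1b, against 3.00% of all genes called lower. CYP707A2 was at low levels, 0.57 ± 0.35 CPM in pot1b Zeocin and 1.76 ± 0.20 CPM in pot1b mock. In WT the synthesis gene AAO3 fell (-0.38, SE 0.08), against 2.65% of all genes called lower, and CYP707A3 rose (0.64, SE 0.19), against 3.34% called higher. Of these Zeocin calls, those of CYP707A1 and CYP707A3 were lost in 9 of 12 leave-one-out fits each and those of CYP707A2 and AAO3 in 1 each, with adjusted p up to 0.25. Without both pot1b libraries numbered 3, the calls of CYP707A2 for Zeocin in pot1b (adjusted p = 0.14) and of CYP707A3 for Zeocin in WT (0.062) and between genotypes under mock (0.054) were lost. NCED3, for the rate-limiting enzyme of synthesis in drought, had log2 fold changes of -0.28 (SE 0.28) with Zeocin in pot1b and 0.00 (SE 0.25) for pot1b against WT under mock, and was not called.

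Abscisic acid receptors, PP2C phosphatases, SnRK2 kinases and bZIP factors had 22 of 26 genes tested. Between genotypes 1 was called under mock, against 13.1% of all genes. This was the receptor gene PYR1, lower in pot1b (-0.39, SE 0.12), against 5.83% of all genes called lower. Under Zeocin all 3 tools called 0, against 11.1% of all genes with edgeR. An unadjusted p under 0.05 was found there for 5 of the 22, against 4812 of the 19596 genes tested. ABF4 (-0.35, SE 0.08) and PYL7 (-0.35, SE 0.11) fell with Zeocin in pot1b, against 3.00% of all genes called lower. PYL7 had a similar value in WT (-0.32, SE 0.10), where it was not called (adjusted p = 0.076). PYL6 rose with Zeocin in WT (0.30, SE 0.08), against 3.34% of all genes called higher. The calls of PYR1, PYL7 and PYL6 were each lost in 5 or more leave-one-out fits (adjusted p up to 0.19), and that of ABF4 in 0. Without both pot1b libraries numbered 3, those of ABF4 (adjusted p = 0.059), PYL7 (0.066) and PYR1 (0.12) were lost.

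Other genes known to respond to cold, drought or abscisic acid had 26 of 30 members tested. Under Zeocin 11 were called higher in pot1b than in WT, against 6.55% of all genes, and 0 lower, against 4.51%. Of these 11 calls, that of LEA4-5 was lost in 9 of 12 leave-one-out fits (adjusted p up to 0.16), and those of LEA4-5 (0.075) and COR413-PM1 (0.055) without both pot1b libraries numbered 3, a fit that called 12. GOLS3, for raffinose-type sugar synthesis, had a log2 fold change of 2.22 (SE 0.43) at the low levels of 1.12 ± 0.20 CPM in pot1b and 0.24 ± 0.12 CPM in WT (n = 3 each). RD20, a caleosin gene, was higher by 1.73 (SE 0.32), also at low levels of 1.66 ± 0.42 CPM in pot1b and 0.49 ± 0.068 CPM in WT. HVA22D was higher by 1.36 (SE 0.11), the starch-degrading BAM3 by 1.17 (SE 0.13), the dehydrin gene XERO2 by 0.93 (SE 0.14) and LEA14 by 0.82 (SE 0.09). Under mock 7 were higher, against 7.25% of all genes, and 1, ATHB12, lower (-0.41, SE 0.12), against 5.83%, and the largest differences were those of HVA22D (1.00, SE 0.11), BAM3 (0.98, SE 0.14), RD20 (0.97, SE 0.26), LEA14 (0.69, SE 0.09), ERD4 (0.48, SE 0.08) and RD22 (0.42, SE 0.10). Leave-one-out fits ended the mock calls of ATHB12 (5 of 12 fits, adjusted p up to 0.14), COR413-PM1 (3 fits, up to 0.064) and RD20 (2 fits, up to 0.080), and that of ATHB12 was also lost without both pot1b libraries numbered 3 (0.088). The median log2 fold change over the 26 was 0.36 under Zeocin and 0.19 under mock, against 0.01 over all genes in each.

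Zeocin calls among these 26 genes went in both directions. In pot1b 4 rose, against 3.70% of all genes, and 3 fell, against 3.00%, while 19 were not called. RCI2B, for a small membrane protein, rose by 1.32 (SE 0.13), the dehydrin gene ERD14 by 0.96 (SE 0.10) and ERD7 by 0.60 (SE 0.10), while XERO1 (-1.41, SE 0.41), RD22 (-0.75, SE 0.10) and ATHB12 (-0.61, SE 0.14) fell. XERO1 was at low levels, 0.42 ± 0.17 CPM in pot1b Zeocin and 1.14 ± 0.20 CPM in pot1b mock. In WT 2 rose, against 3.34% of all genes, RCI2B (0.76, SE 0.13) and ERD14 (0.47, SE 0.10). Another 4 fell, against 2.65%, the homeodomain genes ATHB12 (-0.98, SE 0.13) and ATHB7 (-0.74, SE 0.21), RD22 (-0.61, SE 0.10) and the NAC factor gene RD26 (-0.55, SE 0.10). ERD14 averaged 784 ± 72.0 CPM in pot1b Zeocin and 402 ± 41.0 CPM in pot1b mock (n = 3 each). The calls of XERO1 (8 of 12 leave-one-out fits, adjusted p up to 0.17) and ATHB7 (4 fits, up to 0.27) were lost, and so, for Zeocin in pot1b, was that of HVA22D (3 fits, up to 0.13). Without both pot1b libraries numbered 3, the pot1b calls of XERO1 (adjusted p = 0.26), ATHB12 (0.061) and HVA22D (0.098) and the WT call of ATHB7 (0.053) were lost. In the interaction each of the 3 tools made 0 calls in the 4 lists, against 0.750% of all genes called in either direction by edgeR. An unadjusted p under 0.05 was found there for 2107 of the 19596 genes tested. In the lists it was found for 3 of 11 cold regulators and 1 of 8 genes of abscisic acid synthesis and breakdown. It was also found for 4 of 22 signalling genes and 8 of 26 other responsive genes, and leave-one-out fits called up to 4 of these 26.

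**Figure D4:**
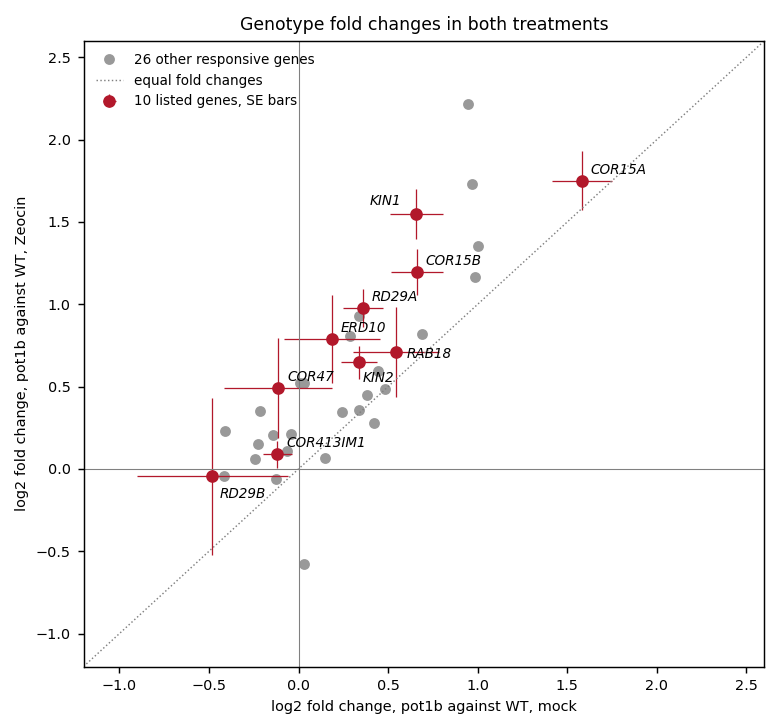
Log2 fold change of pot1b against WT under mock (horizontal axis) and under Zeocin (vertical axis) for the 10 genes, with SE bars, and for 26 other cold, drought or abscisic acid responsive genes. COR15A lies at 1.58 and 1.75, and RD29B and COR413IM1 lie near 0 under Zeocin. All 10 genes lie above the dotted line of equal fold changes, which restates that their interaction values were above 0, where none was called.

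Some tissue markers differed between genotypes as well. The summed level of 3 root markers (PYK10, TIP2;3 and SHR) was 627 to 699 CPM in pot1b Zeocin, 668 to 705 CPM in pot1b mock, 366 to 389 CPM in WT Zeocin and 394 to 412 CPM in WT mock. PYK10, which carries most of that sum and is also known as an ER body enzyme, was called higher in pot1b in both treatments (log2 0.83, SE 0.07, under Zeocin and 0.80, SE 0.07, under mock). TIP2;3 was called higher under Zeocin only (0.78, SE 0.13). SHR was called in neither treatment and had values below 0 (-0.37, SE 0.19, under Zeocin and -0.07, SE 0.19, under mock). The sum of 3 green tissue markers (RBCS1A, CAB1 and RCA) was 8161 to 8528 CPM in pot1b Zeocin, 9051 to 10152 CPM in pot1b mock, 6878 to 8245 CPM in WT Zeocin and 7453 to 7913 CPM in WT mock. Of these, RBCS1A and RCA were called higher in pot1b than in WT under mock and CAB1 was not. Under Zeocin none of the 3 was called between genotypes. RBCS1A and RCA both fell with Zeocin in pot1b. These falls were lost in 4 leave-one-out fits for RBCS1A (adjusted p up to 0.15) and 3 for RCA (up to 0.070), and for each without the 2 pot1b libraries numbered 3 (0.14 for RBCS1A and 0.055 for RCA). Seed markers, of interest because seeds hold many proteins of this kind, summed to at most 1.59 CPM in any library over 7 genes. In bulk seedling samples, more cells of a type and more RNA per cell cannot be told apart, and the part of these tissues in the differences of the 10 genes was not tested.

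Across the 12 libraries, the genes most like the mean of the 10 standardised log2 profiles were AT5G59480 (Pearson r = 0.97), the jasmonate-inactivating enzyme gene CYP94B1 (0.96), GCL1 (0.96), the stress factor gene NAC032 (0.95) and the ER body gene NAI2 (0.95). CYP94B1 averaged 15.3 ± 0.75 CPM in pot1b Zeocin, 12.5 ± 1.26 CPM in pot1b mock, 6.50 ± 1.01 CPM in WT Zeocin and 9.37 ± 1.46 CPM in WT mock (SD, n = 3 each). Among the 10 genes, KIN1 (r = 0.98) and RD29A (0.94) were closest to that mean, of which they are a part, and COR413IM1 (0.12) and RD29B (0.05) farthest. RAB18 alone was most like CYP71B11 (r = 0.91), PRH75 (0.89) and AT2G03980 (0.89). These correlations describe 12 libraries in 4 groups, which share their scaling and group differences, and carry no test.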

How the data were processed

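The deposited files held raw read counts per gene, 1 table of 34262 features for each of 12 libraries. Stranded libraries were made from Trizol RNA with a ribosomal depletion kit for plants, per the labels' protocols. Per the submitters' processing notes, the authors used Trim Galore, HISAT2 on TAIR10, featureCounts and limma; versions and the strand setting are not given in the sources used here. Groups came from the sample titles.

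Differential expression was tested with edgeR 4.0.16 (R 4.3.3). filterByExpr with a minimum count of 10 left 19596 features. Libraries were scaled by TMM, and a robust quasi-likelihood F test was fitted to all 12 libraries in 4 groups. Adjusted p is edgeR's, with Benjamini-Hochberg adjustment over all 19596 features, and a gene was called under 0.05. SE is that of the log2 fold change. DESeq2 1.42.0 and limma-voom (limma 3.58.1) were alternatives, with RLE scaling, no filter, nuclear genes only, the compared groups only, a replicate block and 12 leave-one-out fits; leaving out the pot1b libraries numbered 3 was added after the data were seen. The code was tested on simulated data.

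Positions, exon lengths and motifs came from the RefSeq annotation and genome of TAIR10.1, matched by locus number (10 of 10). RefSeq lists RD29A as LTI78 and RD29B as LTI65. The members and gene lists were chosen with earlier results of these data known. All members are named; of other lists, called genes with the largest fold changes, at most 6 per list and comparison, the tissue markers, and, outside that rule, CBF1 to CBF4, NCED3 and SHR for their role. Intervals cover the spread between libraries.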

Additional observations from a re-analysis of the deposited data

How the results depend on the processing

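Over the alternatives, 930 of 990 fold changes of the 10 genes kept their direction and their side of the threshold. The number of the 10 genes called for Zeocin in WT was 0 when only the WT groups were fitted or both pot1b libraries numbered 3 were left out, and 0 to 1 over the leave-one-out fits. For pot1b against WT it was 3 to 5 under mock and 5 to 7 under Zeocin over the leave-one-out fits, and for Zeocin in pot1b 2 to 4. The interaction called 1 gene without a filter on low counts, 1 with nuclear genes only, 2 with DESeq2 and 0 to 3 over the leave-one-out fits; the cause was not tested.

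With the replicate number as a block, the interaction called 2 genes, KIN1 (adjusted p = 0.0081) and RD29A (0.0013), and ERD10 was called higher in pot1b under Zeocin (0.042). Over all genes the block moved the interaction calls to 379, against 147. Same-numbered libraries had correlations of their deviations from the group mean over 0.1 in 12 of 18 pairs, and 27 of 36 choices of the best partner fell on the same number. In each comparison 1 of 3 pairs was under 0.1, so the numbers were not used as a pairing; the better match of most same-numbered libraries is a hint from the data, and a shared batch was not tested.

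Reversals concerned fold changes that were not called. RD29B turned to 0.45 with limma-voom and ran from -0.53 to 0.67 over the leave-one-out fits for Zeocin in pot1b, turned to 0.17 without the pot1b libraries numbered 3 and ran from -0.21 to 0.17 under Zeocin, and from -0.030 to 1.16 in the interaction. For Zeocin in WT the leave-one-out ranges were -0.19 to 0.089 for RD29A, -0.49 to 0.19 for COR47 and -0.29 to 0.33 for ERD10. RAB18 ran from -0.024 to 0.34 in the interaction and COR413IM1 from -0.011 to 0.16 between genotypes under Zeocin. The cause of these reversals was not tested; RD29B rests on 1 to 26 counts a library.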
